A study of Mus musculus with 12 samples.

Results

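The let-7 family of microRNAs (miRNAs) was followed across mouse embryonic fibroblasts (MEFs), embryonic stem cells (ESCs) and 3 kinds of reprogrammed cells. The members are the 5p arms let-7a, let-7b, let-7c, let-7d, let-7e, let-7f, let-7g and let-7i together with miR-98. In the deposited table they are mmu-let-7a-5p, mmu-let-7b-5p, mmu-let-7c-5p, mmu-let-7d-5p, mmu-let-7e-5p, mmu-let-7f-5p, mmu-let-7g-5p, mmu-let-7i-5p and mmu-miR-98-5p. They were taken by name, 9 of the 1042 miRNAs in the deposited table. The groups were MEFs (C57B6/129SvJae F1, 3 libraries, numbered 13, 14 and 15), ESCs of the E14 line (129/ola, 3 libraries, 2, 3 and 4), induced pluripotent stem cells (iPSCs, 2 libraries, 62 and 63), ESCs made by nuclear transfer (NT-ESCs, 2 libraries, 71 and 72) and cells made by nuclear transfer from an iPSC (NT-iPSCs, 2 libraries, 51 and 52). iPSCs were MEFs infected with a doxycycline-inducible lentivirus for Oct4, Sox2, Klf4 and c-Myc, so NT-iPSCs descend from cells that carry this vector. NT-ESCs came from transfer of a MEF nucleus, without the factors. All reprogrammed cells carry the C57B6/129SvJae F1 background of the MEFs, whereas the ESCs are of another strain, so strain and cell type cannot be told apart in any comparison with ESCs. ESCs and reprogrammed cells grew on irradiated MEF feeders with LIF, and MEFs grew without LIF.

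let-7 is known as a family of miRNAs that build up as cells differentiate and that stay low in pluripotent stem cells. In ESCs the RNA-binding protein LIN28 attaches to the loop of let-7 precursors and blocks their maturation, while mature let-7 silences Lin28 itself and other growth genes such as Myc and Hmga2. The miR-290 and miR-302 families of pluripotent cells are known to act against let-7 on the decision to self-renew.

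The mature sequences are shown because the 9 members share the seed, the stretch that pairs with targets, and differ in only a few bases outside it. All 9 were matched in the RefSeq table (GRCm38.p6), and all are 22 nt long with the same seed at positions 2 to 8, given in capitals, 5′ to 3′:
let-7a: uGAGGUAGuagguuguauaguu
let-7b: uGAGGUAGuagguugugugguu
let-7c: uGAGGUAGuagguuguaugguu
let-7d: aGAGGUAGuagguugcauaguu
let-7e: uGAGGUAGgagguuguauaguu
let-7f: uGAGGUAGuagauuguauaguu
let-7g: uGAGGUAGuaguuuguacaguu
let-7i: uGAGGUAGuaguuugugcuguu
miR-98: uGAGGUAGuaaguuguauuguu

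Positions are counted from 1 at the 5′ end, with the base of let-7a first. let-7c differs from let-7a by A19G, let-7e by U9G and let-7f by G12A. let-7b holds A17G and A19G, let-7d holds U1A and U16C, let-7g holds G12U and U18C, and miR-98 holds G11A and A19U. let-7i is the farthest from let-7a, with G12U, A17G, U18C and A19U. Of the 36 pairs of members, 4 differ by 1 base and the farthest pair by 6. The number of mismatches allowed when reads were assigned is not given in the sources used here, so the split of reads between such close members is uncertain, whereas their sum is less so. Of the other miRNAs in the table, miR-1961 was the only one matched in RefSeq with this seed, and it had 0 reads in all 12 libraries.

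The 9 members come from 12 hairpins in the RefSeq annotation. let-7a-1, let-7f-1 and let-7d lie within 1 cluster on chromosome 13 on the minus strand (chr13:48536012-48538272, GRCm38.p6), in exons of the noncoding RNA 6720427I07Rik in GENCODE M21. let-7c-2 and let-7b lie 622 nt apart on chromosome 15 in exons of Lncppara, and let-7f-2 and mir-98 lie 786 nt apart on chromosome X in introns of Huwe1, the gene of a ubiquitin ligase. let-7g lies in an intron of Wdr82 on chromosome 9. Other hairpins sit beside the miR-99/100 and miR-125 families: let-7a-2 with mir-100 and mir-125b-1 on chromosome 9, let-7c-1 with mir-99a on chromosome 16, and let-7e with mir-125a on chromosome 17 in an intron of Spaca6. let-7i stands alone on chromosome 10.

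LIN28 is known to recognise the letters GGAG in the precursor loop. The stretch between the 2 mature arms was searched for GGAG on the strand of the hairpin. It was found in 9 of the 12 hairpins, beside 52 of the 644 mouse hairpins with both arms in RefSeq (8.07%). The examples below are shown because let-7b and let-7c-2 are among the hairpins without it, with GGAG in capitals where it occurs:
let-7a-1: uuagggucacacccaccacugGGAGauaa
let-7e: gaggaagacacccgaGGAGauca
let-7g: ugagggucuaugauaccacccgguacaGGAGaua
let-7b: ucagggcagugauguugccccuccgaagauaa
let-7c-2: uugggcucugccccgcucugcgguaa
Such a match describes the letters of this window alone.

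Values are on the deposited scale, the variance stabilizing transformation (VST), on which 1 unit is a 2-fold difference at the members' levels. Reads recovered from the values came to between 4863365 and 8608689 on miRNAs per library, and no member fell under 555 reads in any library, so counting error was not a limit. Size factors, by which the authors divided the reads, lay between 0.761 and 0.818 for MEFs, between 0.886 and 0.998 for ESCs and between 1.14 and 1.44 for the reprogrammed cells, although MEFs had the most reads, so the VST and the share of reads give different answers for MEFs. The 6 reprogrammed libraries also stood apart from the other 6 in the balance of the 2 arms of a hairpin. Over 128 arm pairs the median absolute shift of log2(5p/3p) was 2.41 to 2.70 between any reprogrammed type and MEFs or ESCs, but 0.65 between MEFs and ESCs and 0.24 to 0.36 among reprogrammed types. No label ties these libraries to a batch, and cell type and library set cannot be told apart in those comparisons. The comparisons of MEFs with ESCs and of the reprogrammed types with each other do not cross this line.

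The labelled cell types were checked against marker miRNAs. The summed CPM (reads scaled to a common miRNA total) of 10 pluripotent markers, the miR-290 and miR-302 families, were 0.745 to 8.83 in MEFs and 67851 to 130979 in all 9 pluripotent libraries. The summed CPM of the 11 fibroblast markers in the table was 75643 to 110024 in MEFs, 43745 to 47490 in ESCs, 24865 to 26862 in iPSCs, 63438 to 64741 in NT-ESCs and 64131 to 74658 in NT-iPSCs, and no marker of this list was at 0 in any group. miR-199a-3p and miR-199b-3p are nearly identical and held nearly the same reads, and with them counted once the sums were 68519 to 99473 in MEFs, 42073 to 46166 in ESCs, 14924 to 16298 in iPSCs, 34967 to 35877 in NT-ESCs and 35445 to 40794 in NT-iPSCs. The nuclear transfer cells thus stood above ESCs with the pair counted under both names and below ESCs with it counted once. iPSCs were lowest either way. Most of the sum counted once was a single miRNA. It was miR-199a-3p for the nuclear transfer cells (CPM 28476 to 33868) and miR-143-3p for ESCs (CPM 35935 to 40712). Each miR-199a-5p read came with 115 to 346 reads of miR-199a-3p in reprogrammed libraries. That ratio was 3.29 to 5.91 for MEFs and 3.78 to 5.21 for ESCs. The sums are therefore not a measure of fibroblast level across these sets. In such bulk RNA, fewer cells of a type and less RNA per cell cannot be told apart. The 4 muscle markers had a summed CPM of 106569 to 126969 in MEFs, where their mean (118162) was above that of the fibroblast list (89910). It lay between 489 and 569 in ESCs, between 1846 and 1959 in the nuclear transfer cells and between 2052 and 2521 in iPSCs.

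The share of all miRNA reads on the 9 members shows how large the family is in each cell type. It was 18.3%, 20.6% and 21.8% in the MEF libraries, 8.06%, 8.52% and 6.68% in ESCs, 11.0% and 10.1% in iPSCs, 27.0% and 26.9% in NT-ESCs and 33.7% and 33.5% in NT-iPSCs. Thus let-7 took the smallest shares in ESCs and iPSCs and the largest in both kinds of nuclear transfer cells, and no group overlapped another. By mean share, NT-iPSCs stood 4.33-fold, NT-ESCs 3.47-fold, MEFs 2.61-fold and iPSCs 1.36-fold over ESCs. By reads divided by the size factors the same ratios were 4.72, 3.33, 4.82 and 1.01. The order of NT-iPSCs, NT-ESCs, and then iPSCs and ESCs was common to both scales, and the place of MEFs was not.

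**Figure D1:**
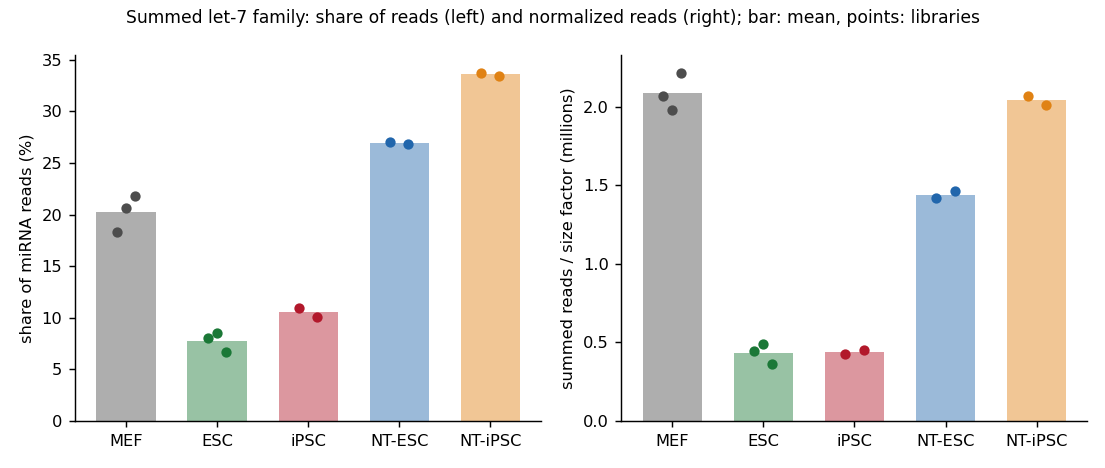
Summed reads of the 9 let-7 family members in each cell type, as a percent of all miRNA reads (left) and divided by the size factor (right), with bars for the mean and points for single libraries. NT-iPSCs lie at 33.5% to 33.7% and NT-ESCs at 26.9% to 27.0% of reads, above the 10.1% to 11.0% of iPSCs, and MEFs are below both NT types on the left and beside NT-iPSCs on the right.

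let-7a, let-7c and let-7f made up most of the family. let-7f, which comes from 2 hairpins, had VST values of 21.31, 21.18 and 21.31 in MEFs, 19.10, 19.45 and 19.12 in ESCs, 19.40 and 19.51 in iPSCs, 21.32 and 21.37 in NT-ESCs and 21.97 and 21.77 in NT-iPSCs. It was the most abundant of all miRNAs in the 4 nuclear transfer libraries, and ranked 3 or 4 in MEFs, between 7 and 10 in ESCs and 6 in iPSCs. let-7a, also from 2 hairpins, read 21.06, 21.05 and 21.27 in MEFs, 19.05, 19.06 and 18.53 in ESCs, 18.61 and 18.68 in iPSCs, 20.46 and 20.57 in NT-ESCs and 21.00 and 21.00 in NT-iPSCs. let-7c read 21.16, 21.04 and 21.20 in MEFs, 18.82, 18.87 and 18.30 in ESCs, 18.36 and 18.38 in iPSCs, 19.84 and 19.88 in NT-ESCs and 20.08 and 20.23 in NT-iPSCs. In all 3, ESCs and iPSCs formed a low pair and every nuclear transfer library lay above every library of that pair, and ESC library 4 was the lowest ESC library for let-7a and let-7c.

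Among the members of middle abundance, let-7b read 19.07, 19.62 and 19.57 in MEFs, 16.82, 16.64 and 16.11 in ESCs, 15.63 and 15.55 in iPSCs, 17.66 and 17.62 in NT-ESCs and 17.96 and 18.17 in NT-iPSCs. Every MEF library was thus above every other library for let-7b. let-7e read 18.59, 18.48 and 19.00 in MEFs, 16.49, 16.83 and 16.43 in ESCs, 17.38 and 17.45 in iPSCs, 18.56 and 18.61 in NT-ESCs and 19.08 and 19.21 in NT-iPSCs. Here iPSCs lay above every ESC library, and NT-iPSCs above every MEF library. let-7g read 18.68, 18.25 and 18.23 in MEFs, 16.26, 16.55 and 16.22 in ESCs, 16.27 and 16.47 in iPSCs, 17.48 and 17.45 in NT-ESCs and 18.30 and 17.74 in NT-iPSCs, with overlap of ESCs with iPSCs and of MEFs with NT-iPSCs. let-7d read 17.87, 17.92 and 18.02 in MEFs, 14.69, 15.09 and 15.22 in ESCs, 15.16 and 15.50 in iPSCs, 17.20 and 17.21 in NT-ESCs and 17.62 and 17.61 in NT-iPSCs.

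let-7i had the most uneven pattern. It read 17.52, 16.71 and 16.92 in MEFs, 14.55, 14.94 and 14.35 in ESCs, 16.02 and 16.08 in iPSCs, 17.41 and 17.31 in NT-ESCs and 18.12 and 18.77 in NT-iPSCs, so that NT-iPSCs exceeded every other library and iPSCs lay between ESCs and MEFs. miR-98 was the least abundant member, between 555 and 2528 reads a library. It read 13.10, 12.82 and 12.92 in MEFs, 11.63, 11.94 and 11.34 in ESCs, 10.88 and 11.13 in iPSCs, 12.55 and 12.48 in NT-ESCs and 13.12 and 12.98 in NT-iPSCs, with every iPSC library below every ESC library.

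**Figure D2:**
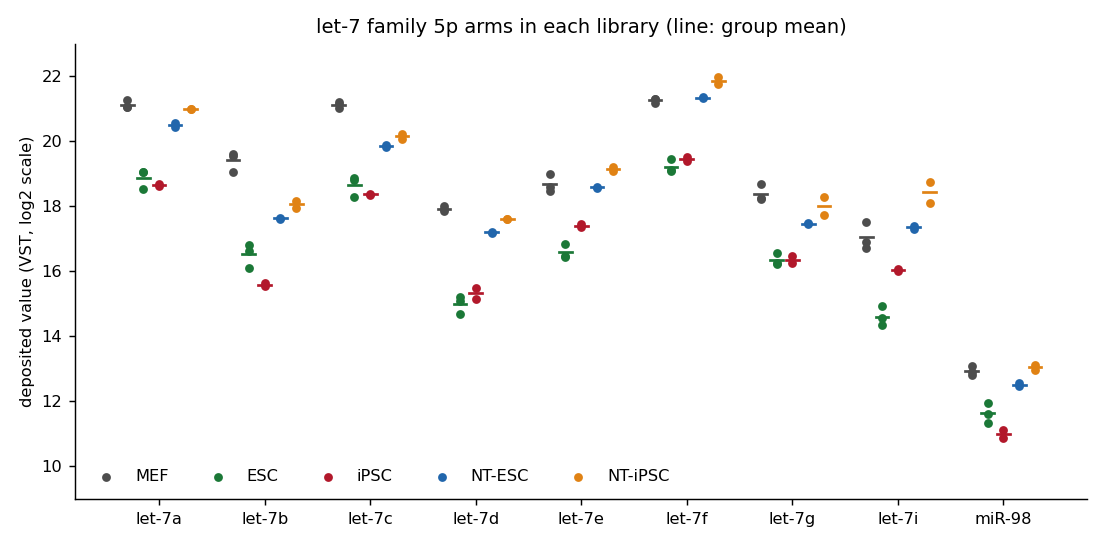
Deposited VST values (log2 scale) of the 9 members in the 12 libraries, with points for single libraries and short lines for group means. ESCs and iPSCs are the 2 lowest groups for each of the 9 members, and the spread within a group (median SD over the members of 0.03 to 0.30) is small beside the distance to the nuclear transfer cells.

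MEFs were compared with ESCs to ask how the differentiated cells of origin differ from natural pluripotent cells. All 9 members were higher in MEFs (limma, adjusted p between 1.51e-08 and 2.18e-05), beside 39.1% of the 732 miRNAs tested that were called higher. The member differences had a median of 2.25 against 0.00 over all miRNAs tested. let-7d differed most, by 2.93 (SE 0.15), a 7.57-fold difference in normalized reads, and let-7b by 2.89 (SE 0.20), or 7.39-fold. miR-98 differed least, by 1.31 (SE 0.17), or 2.45-fold. Scaled to total miRNA reads, the 9 differences ran from 0.42 to 2.04, all still above 0. In the same comparison the 11 fibroblast markers were all called higher in MEFs, with a median of 3.32, and so were the 4 muscle markers, with a median of 9.21. The part of either list in the result was not tested.

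iPSCs and ESCs were compared to ask whether the induced cells reach the let-7 levels of ESCs. Only let-7e and let-7i were called higher in iPSCs and let-7b and miR-98 lower, and 5 members were not called in either direction, beside 39.8% of all miRNAs tested that were called higher and 36.1% called lower. let-7i was higher by 1.44 (SE 0.26, adjusted p = 0.000417, limma), 2.68-fold in normalized reads, and let-7e by 0.83 (SE 0.18, adjusted p = 0.00141, limma), 1.76-fold. let-7b was lower by a difference of -0.93 (SE 0.22, adjusted p = 0.00254, limma) and miR-98 by -0.63 (SE 0.19, adjusted p = 0.00884, limma). For the members not called, the 95% intervals of the difference were -0.63 to 0.17 for let-7a, -0.69 to 0.10 for let-7c, -0.04 to 0.71 for let-7d, -0.11 to 0.58 for let-7f and -0.43 to 0.47 for let-7g. The calls of let-7b and miR-98 do not hold on the scale of total reads, where 5 members were called higher and 0 lower, beside 49.3% of all miRNAs called higher and 32.8% lower, and a total of 7 differences were above 0. Without iPSC library 62 only let-7b remained lower, and without ESC library 4 let-7a and let-7c were called lower too, which makes 4. let-7d was called higher without ESC library 4 (0.44, adjusted p = 0.0377, limma) and stood at 0.50 without iPSC library 62. Of the 11 fibroblast markers, 2 were called higher and 5 lower in iPSCs than in ESCs.

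**Figure D3:**
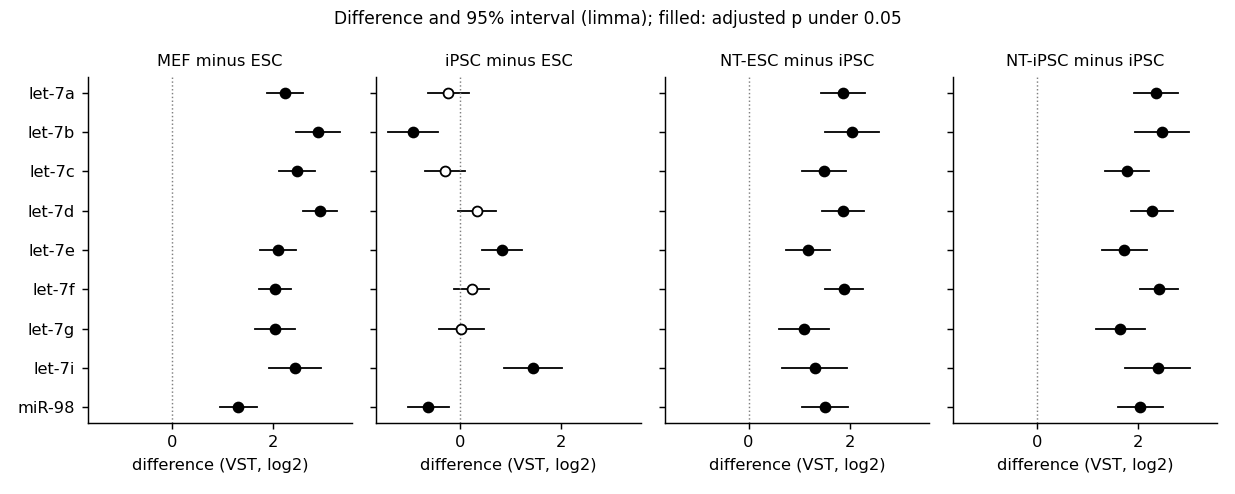
Differences in VST (log2 scale) of each member in 4 comparisons, with 95% intervals from limma and filled points where the adjusted p was under 0.05. The 9 members lie above 0 in the comparison of MEFs with ESCs and in both comparisons of nuclear transfer cells with iPSCs, whereas iPSCs against ESCs run from -0.93 to 1.44.

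NT-ESCs and NT-iPSCs were each compared with ESCs; both comparisons use the same 3 ESC libraries, and so do those of MEFs and iPSCs above. All 9 members were higher in NT-ESCs, with differences from 0.88 (miR-98) to 2.75 (let-7i) and a median of 1.63, beside 39.8% of all miRNAs called higher and a median of 0.25 over all. All 9 were also higher in NT-iPSCs, from 1.41 (miR-98) to 3.83 (let-7i) with a median of 2.12, beside 41.1% called higher and a median of 0.12. let-7i thus stood 6.63-fold and 14.4-fold over ESCs in normalized reads, and let-7f 4.33-fold and 6.24-fold. The calls of all 9 held under every scaling tried. Of the 11 fibroblast markers, 5 were called higher and 5 lower than in ESCs in each of the 2 comparisons. Of the 5 neural markers in the table, 3 were called higher and 2 lower in each, with miR-124-3p higher by 4.31 and 3.72 and miR-128-3p by 3.63 and 3.49, and miR-9-5p at -2.68 and -3.22. Of the 4 muscle markers, miR-1a-3p, miR-133a-3p and miR-133b-3p were called higher in each, by 3.01 to 4.15, and miR-206-3p was not called, at -0.34 and 0.19. In iPSCs, too, 3 neural markers were called higher and 2 lower than in ESCs, and 3 muscle markers higher and 1 lower. The summed CPM of 3 liver and gut endoderm markers was 1091 to 1325 in ESCs, 2432 to 2757 in NT-ESCs and 2540 to 2691 in NT-iPSCs, and 1999 to 2338 in iPSCs, where let-7 was low. Of these 3, miR-122-5p and miR-192-5p had more CPM in every NT library than in any ESC library, while miR-194-5p went the other way, with a CPM of 170 to 180 in ESCs and 15.4 to 19.2 in the 4 NT libraries. The part of these lists in the result was not tested.

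The reprogrammed types were compared with each other to ask how the family differs between them. Each type is 1 line, so line and route to pluripotency cannot be told apart. All 9 members were higher in NT-ESCs than in iPSCs (adjusted p between 0.000118 and 0.00758, limma), beside 12.6% of all miRNAs, with a median difference of 1.51 against -0.10 over all. let-7b differed by 2.05 (SE 0.24), a 4.13-fold difference in normalized reads, let-7f by 1.89 (SE 0.17), 3.71-fold, and let-7g least, by 1.10 (SE 0.22), 2.14-fold. Without NT-ESC library 71 the call of let-7i was lost (1.26, adjusted p = 0.0503, limma) and 8 members passed. All 9 were higher in NT-iPSCs than in iPSCs as well, beside 13.4% of all miRNAs, with a median of 2.28 against 0.00 over all. let-7b differed by 2.47 (SE 0.24), 5.55-fold, let-7f by 2.42 (SE 0.17), 5.34-fold, let-7i by 2.39 (SE 0.29), 5.37-fold, and let-7g by 1.65 (SE 0.22), 3.19-fold. These 2 comparisons share the iPSC libraries. Under total miRNA reads the differences still ran from 0.74 to 1.68 and from 1.11 to 1.92.

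Most fibroblast and liver and gut endoderm markers were also called higher in these comparisons, but few or none of muscle, neural and blood markers. Of 11 fibroblast markers, 9 were called higher in NT-ESCs than in iPSCs with a median difference of 1.53, and 10 were called higher in NT-iPSCs with a median of 1.94, beside the let-7 medians of 1.51 and 2.28. miR-199a-3p, of fibroblasts and other mesenchymal cells, was higher by 1.85 and 2.15, miR-214-3p by 1.90 and 2.09 and miR-143-3p by 1.33 and 1.60. The counts and medians hold miR-199a-3p and miR-199b-3p as 2 markers. Of the 3 liver and gut endoderm markers, miR-122-5p was higher by 1.27 and 2.11 and miR-194-5p by 0.62 and 0.61, and miR-192-5p, at 0.51 and 0.53, was called in NT-iPSCs alone. Of the 4 muscle markers, only miR-206-3p was called higher, by 1.45 and 1.98, and of the 5 neural markers only miR-9-5p was, by 1.34 and 0.80. The 4 blood markers had a summed CPM of 580 to 602 in iPSCs, 266 to 275 in NT-ESCs and 481 to 482 in NT-iPSCs. None of the 4 was called higher in either comparison, and 2 were called lower in NT-ESCs. The part of feeder RNA or of any of these cell types in the let-7 difference was not tested.

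NT-iPSCs and NT-ESCs differed less. All 9 differences were above 0, from 0.30 (let-7c) to 1.08 (let-7i), but only let-7i was called (SE 0.29, adjusted p = 0.0372, limma), beside 5.6% of all miRNAs called higher. Every NT-iPSC library lay above every NT-ESC library for each of the 9 members. The 95% intervals, which are not adjusted, reached below 0 for let-7b (-0.114 to 0.959), let-7c (-0.137 to 0.735) and let-7d (-0.000138 to 0.826). They lay above 0 for let-7a (0.0484 to 0.920), let-7e (0.125 to 0.997) and let-7f (0.146 to 0.903). The same held for let-7g (0.0597 to 1.04) and miR-98 (0.0847 to 0.980). After adjustment none of these 8 was called. The call of let-7i rests on single libraries: without NT-ESC library 71, NT-ESC library 72 or NT-iPSC library 52 its difference was 1.13, 1.03 and 0.75 and no longer passed the test. The call was also lost with TMM-type scaling, with no low value filter and with only the groups compared. The SD of the NT-iPSC values of let-7i was 0.46, the widest of any member in any group. The differences of the 11 fibroblast markers between these types ran from -0.16 to 0.95 with a median of 0.23.

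Each reprogrammed type was compared with the MEFs it came from. On the VST scale all 9 members were lower in iPSCs than in MEFs, from -3.83 (let-7b, SE 0.22) up to let-7i, which had 0.486 times the normalized reads of MEFs, with a median of -2.02, beside 39.2% of all miRNAs called lower. In NT-ESCs 6 members were called lower, let-7b most at -1.78 (SE 0.22), beside 38.1% of all called lower, and let-7e, let-7f and let-7i were not called, at -0.10, 0.08 and 0.31. The call of miR-98 (-0.43, adjusted p = 0.0493, limma) was lost when any 1 of 7 libraries was left out, MEF 13 and 15, ESC 2 and all 4 nuclear transfer libraries, and that of let-7a was lost without NT-ESC 71 (-0.56, adjusted p = 0.0558). In NT-iPSCs let-7i (1.39, SE 0.26), let-7f (0.60, SE 0.16) and let-7e (0.46, SE 0.18) were called higher and let-7b (-1.36, SE 0.22) and let-7c (-0.98, SE 0.18) lower, beside 46.7% of all called higher and 36.3% called lower. let-7e lost its call without MEF library 13 or 14 or either NT-iPSC library. Thus let-7b was lower than in MEFs in all 3 reprogrammed types, and let-7i was the only member to stand more than 1 unit above MEFs in any.

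Many of these directions against MEFs depend on the scaling, chiefly those in the nuclear transfer cells. By total miRNA reads, let-7e and let-7i were above 0 in iPSCs (0.03 and 0.31), and 7 of the 9 members were above 0 in NT-ESCs and 7 in NT-iPSCs, where 4 and 7 were called higher, beside 54.6% of all miRNAs in each. let-7b was below MEFs under each scaling and in each reprogrammed type. The median of all miRNAs itself shifted by 0.88, 0.55 and 0.31 in the 3 comparisons with this scaling. Of the 11 fibroblast markers, all were called lower in iPSCs than in MEFs, and 8 were lower and 2 higher in each kind of nuclear transfer cell. All 4 muscle markers were called lower than in MEFs in each reprogrammed type. The part of these lists was not tested.

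**Figure D4:**
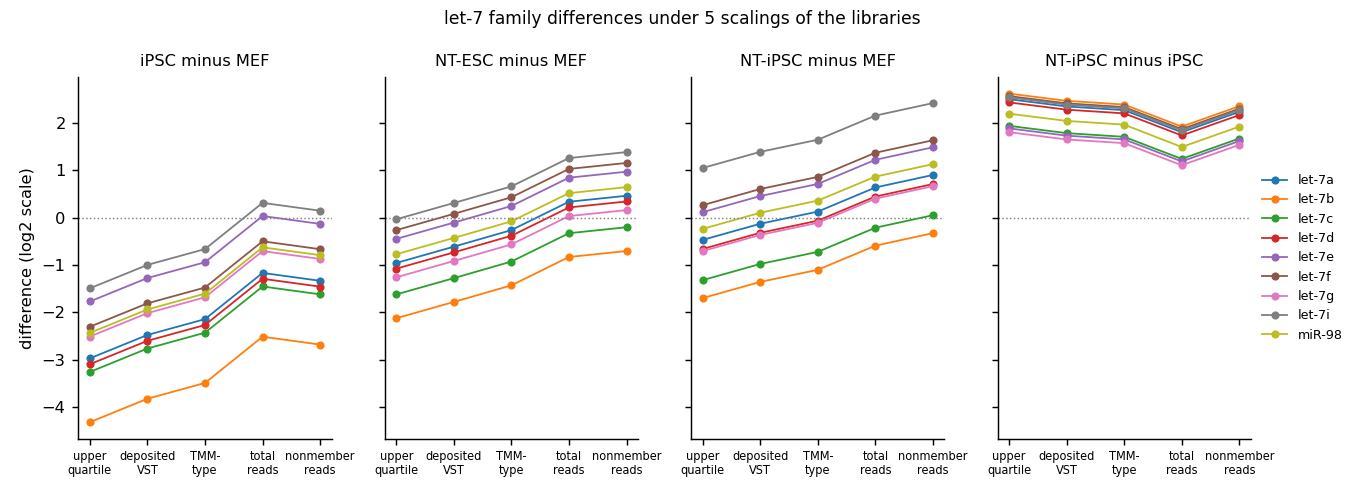
Differences (log2 scale) of the 9 members in 3 comparisons with MEFs and in NT-iPSCs against iPSCs, under 5 ways of scaling the libraries, with 1 line for each member. Lines of several members cross 0 against MEFs, with let-7i highest and let-7b lowest throughout those 3 panels, whereas in the comparison of NT-iPSCs with iPSCs every point lies above 1.1.

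The make-up of the family needs no scaling between libraries. let-7f took 28.0% ± 0.946 (SD, n = 3) of family reads in MEFs, 33.2% ± 3.49 (n = 3) in ESCs, 38.1% ± 0.457 (n = 2) in iPSCs, 42.9% ± 0.112 (n = 2) in NT-ESCs and 43.6% ± 3.28 (n = 2) in NT-iPSCs. let-7c had the opposite order, at 25.6% ± 0.572, 22.5% ± 1.88, 17.9% ± 0.594, 15.3% ± 0.0609 and 13.3% ± 1.19 in the same order. let-7a stayed within 21.7% and 28.4% in every library. let-7b took between 6.18% and 9.41% in MEFs, between 4.52% and 6.06% in ESCs and between 2.47% and 3.39% in the reprogrammed cells, so that MEFs, ESCs and reprogrammed cells did not overlap. let-7e was highest in iPSCs, at 9.20% to 9.29%, and let-7i was 1.26% to 2.11% in MEFs and ESCs and 2.57% to 5.14% in the reprogrammed cells. These shares were not tested.

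**Figure D5:**
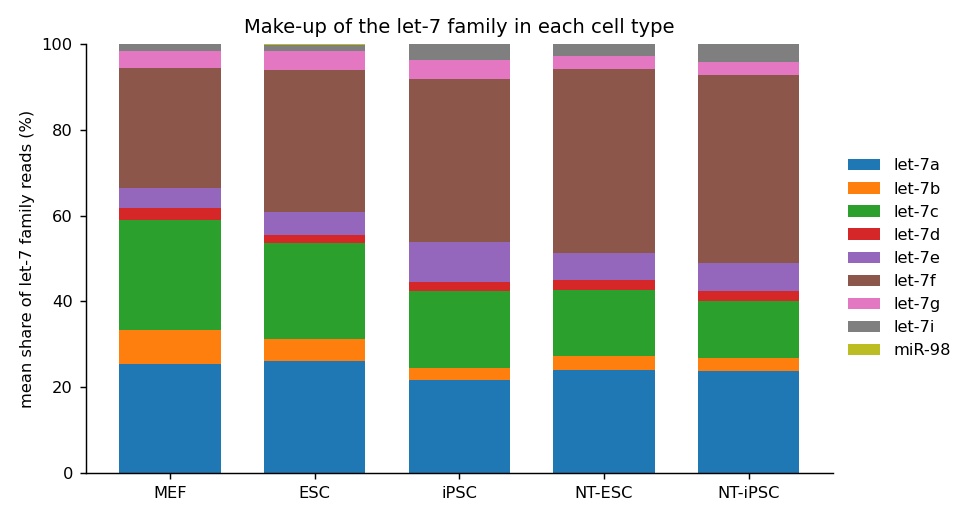
Mean share (%) of each member in the reads of the let-7 family, by cell type, as stacked bars that sum to 100. The let-7f band is 28.0% in MEFs and 43.6% in NT-iPSCs, and the let-7c band 25.6% and 13.3%.

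The members varied together. The Pearson r of a member with the mean of the other 8 over the 12 libraries ran from 0.82 (let-7i) and 0.87 (let-7b) to 0.98 (let-7d) and 0.99 (let-7a). The points are libraries of 5 cell types that share their size factors. Among 278 other miRNAs with a mean VST over 10, the 5 closest to the family mean were miR-29b-3p (r = 0.95), miR-125b-5p (r = 0.95), miR-145-5p (r = 0.90), miR-181a-5p (r = 0.90) and miR-143-5p (r = 0.85). miR-145 and miR-143 are known markers of mesenchymal and smooth muscle cells. The other arm, miR-143-3p, had VST values of 19.69 to 19.91 in ESCs, above the 15.86 to 16.46 of the nuclear transfer cells, unlike the family.

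The opposite (3p) arms of the let-7 hairpins are mostly passenger strands, and 12 of them are in the table, 11 of which passed the filter of 10 reads in 2 libraries. let-7a-1-3p and let-7c-2-3p have the same sequence, shown because reads cannot tell them apart, and they held the same reads but for 1 read in 1 library:
let-7a-1-3p: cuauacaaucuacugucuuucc
let-7c-2-3p: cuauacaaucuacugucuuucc
Several arms, among them let-7a-2-3p, let-7b-3p and let-7c-1-3p, passed the filter only through the MEF libraries, so the arms are given by their reads, with no count of calls.

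Counted with let-7a-1-3p and let-7c-2-3p as 1, the 3p reads summed to 500 to 1011 in MEFs, 88 to 125 in ESCs, 156 to 163 in iPSCs, 507 to 597 in NT-ESCs and 538 to 670 in NT-iPSCs. The ratio of 5p to 3p reads lay between 1738 and 3147 in MEFs, between 3137 and 4098 in ESCs and between 2805 and 4703 in the reprogrammed cells. let-7d-3p held 219 to 662 in MEFs, 56 to 98 in ESCs, 122 to 125 in iPSCs, 411 to 500 in NT-ESCs and 434 to 565 in NT-iPSCs. let-7g-3p had 5 to 17 reads in MEFs and 2 to 6 in ESCs but 0 in all 6 reprogrammed libraries, where let-7g-5p had 24874 to 91338 reads. let-7a-2-3p had 12 to 21 reads in MEFs and let-7c-1-3p 23 to 31, and both were also at 0 in all 6 reprogrammed libraries. A count of 0 allows up to 3 reads, or a CPM of 0.396 to 0.567 in these libraries, and intervals of this kind cover counting error only.

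The miRNAs next to let-7 in its clusters did not all move with it. All 5 neighbours, miR-99a, miR-99b, miR-100, miR-125a and miR-125b (5p arms), were higher in MEFs than in ESCs. miR-125b, known to be common in differentiated cells, stood at -0.50 (SE 0.17) in iPSCs, where the let-7 median was 0.02, and was higher by 1.13 (SE 0.17) in NT-ESCs and 1.51 (SE 0.17) in NT-iPSCs against ESCs. miR-100, whose hairpin lies 5212 nt from let-7a-2, was lower than in ESCs in all 3, by -4.33, -3.22 and -2.91 (SE 0.14 each), with 2033 to 2514 reads in ESCs, 151 to 175 in iPSCs and 303 to 413 in the nuclear transfer cells. miR-99b was lower too, by -2.28, -2.11 and -1.96 (SE 0.20 each). miR-99a, 657 nt from let-7c-1, was lower in iPSCs by -1.15 (SE 0.19), was not called in NT-ESCs (0.22, SE 0.19) and was higher in NT-iPSCs by 0.95 (SE 0.19). Against iPSCs, 3 of the 5 were higher in NT-ESCs and 4 in NT-iPSCs.

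The stem cell family that is set against let-7 was lowest in MEFs. Of 6 members, miR-291a-3p, miR-294-3p, miR-295-3p, miR-302a-3p, miR-302b-3p and miR-302d-3p, no MEF library held more than 22 reads of any. Levels in ESCs were uneven, with 19 to 27 reads of miR-302d-3p and 43 to 65 of miR-302a-3p beside 91023 to 143214 of miR-295-3p. miR-294-3p overlapped by CPM, with 21046 to 25015 in NT-ESCs, 17126 to 23735 in NT-iPSCs and 17826 to 25145 in iPSCs. Against iPSCs, miR-302a-3p and miR-302d-3p were called lower in both kinds of nuclear transfer cell and none of the 6 was called higher. miR-302a-3p differed by -2.40 in NT-ESCs and -2.60 in NT-iPSCs (SE 0.31 each), with a CPM of 14.6 to 24.1 and 12.9 to 16.0 beside 122 to 135 in iPSCs. miR-302d-3p differed by -2.33 and -2.45 (SE 0.32 each), with a CPM of 43.9 to 65.4 and 35.1 to 53.7 beside 318 to 376. miR-302b-3p was not called, at -2.16 and -2.07 (SE 0.85 each), although its CPM of 21.8 to 27.4 and 18.9 to 27.7 lay below the 132 to 149 of iPSCs.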

How the data were processed

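Small RNAs of 18-30 nt were sequenced from 12 libraries of 5 cell types, where libraries of a type are batches of RNA from 1 line, so that p-values measure the spread between such batches. The authors removed adaptors and contaminants, annotated the reads and deposited 1 value per miRNA and library, the DESeq variance stabilized value on a log2 scale. The submitters' processing notes name DESeq and mm8, and the table holds no coordinates. The sequences, and the positions given, come from RefSeq (GRCm38.p6), and the hosts from GENCODE M21. Loop sequences are given for 5 of the 12 hairpins, and the others are not reported here.

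The transformation was inverted. Reads came out whole within 0.05 read for 100% of 9458 nonzero values and served for depth, shares and other scalings. limma (3.58.1, R 4.3.3) with a mean-variance trend was fitted to the deposited values of all 12 libraries. A miRNA needed 10 reads in 2 or more libraries to be tested, 732 passed, and p-values were adjusted over these by the Benjamini-Hochberg method and called at 0.05. The fit was tested on simulated data for MEFs against ESCs alone, which leaves the groups of 2 libraries uncovered. The outcome is not reported here. Python 3.11.15, numpy 2.4.6, pandas 2.3.3 and matplotlib 3.10.9 made the summaries.

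The named miRNAs are the members, their 3p arms, miRNAs with the same seed, cluster neighbours, a stem cell seed family and the 5 miRNAs most like the family mean. The members and lists were chosen with earlier results of these data known. Alternatives were scalings by total reads, by nonmember reads, by the upper quartile and by a TMM type, log2 of normalized reads plus 1, voom, no filter, at least 100 reads, only the groups compared, a difference of at least 1, and each library left out.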

Additional observations from a re-analysis of the deposited data

How the results depend on the processing

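No paired analysis was possible because the groups share no replicate numbers. All 9 calls held under every scaling in MEFs against ESCs and in both nuclear transfer types against ESCs and against iPSCs, with NT-ESCs against iPSCs at 8 to 9 when a library was left out. A minimum difference of 1 left 8 in NT-ESCs against ESCs and 8 in iPSCs against MEFs. Over 90 member differences, the 9 alternatives other than that minimum, which was applied to counts of calls, and than leaving out a library gave 736 values on the same side of the test, 23 that lost the call, 21 that gained it and 30 reversed in sign, and leaving out each library gave 1053, 17, 6 and 4. The cause of these changes was not tested.

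Medians of all miRNAs shifted by -0.53 (MEFs against ESCs), 0.29 (iPSCs against ESCs), 0.88 (iPSCs against MEFs), -0.25 (NT-ESCs against iPSCs) and -0.43 (NT-iPSCs against iPSCs) with total reads as library size, where the share of higher calls went from 49.5% to 30.8%, 52.4% to 60.1%, 55.4% to 67.2%, 48.9% to 23.8% and 50.5% to 19.1%. With the upper quartile it went from 49.5% to 60.5% in MEFs against ESCs and from 48.9% to 62.6% in NT-ESCs against iPSCs. Against MEFs, 416 of 732 miRNAs were called higher and 213 lower in NT-ESCs with nonmember reads, and 355 and 252 with TMM-type scaling. NT-iPSCs had 421 and 204 with nonmember reads, and 320 and 299 with the upper quartile. Total reads gave 400 and 217 in each. Against NT-ESCs, NT-iPSCs had 70 higher with nonmember reads and 31 with TMM-type scaling. These are the background for the member counts of the same comparisons below.

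For iPSCs against ESCs, members called higher and lower were 1 and 0 with a minimum difference of 1, 5 and 0 with total reads, 5 and 0 with nonmember reads, and 1 was lower with the upper quartile; leaving out a library gave 2 to 3 higher and 1 to 4 lower. For NT-ESCs against MEFs they were 2 lower with a minimum difference of 1, 4 and 1 with total reads, 5 and 1 with nonmember reads, 1 and 3 with TMM-type scaling, and 0 to 1 and 4 to 6 with a library left out (let-7i was higher without MEF library 13). For NT-iPSCs against MEFs they were 1 and 1 with a minimum difference of 1, 7 and 1 with total reads, 7 and 0 with nonmember reads, 1 and 4 with the upper quartile, and 2 to 3 and 2 to 3 with a library left out. For NT-iPSCs against NT-ESCs the number higher was 2 with nonmember reads, 0 with TMM-type scaling, 3 with voom, 0 with no low value filter, 2 with at least 100 reads, 0 with only the groups compared, and 0 to 1 with a library left out.

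Signs reversed with total reads for let-7a (0.19) and let-7c (0.12) in iPSCs against ESCs, let-7e (0.034) and let-7i (0.31) in iPSCs against MEFs, let-7a (0.34), let-7d (0.22), let-7e (0.84), let-7g (0.033) and miR-98 (0.52) in NT-ESCs against MEFs, and let-7a (0.64), let-7d (0.45) and let-7g (0.40) in NT-iPSCs against MEFs. With nonmember reads they reversed for let-7a (0.23) and let-7c (0.17) in iPSCs against ESCs, let-7i (0.15) in iPSCs against MEFs, let-7a (0.46), let-7d (0.34), let-7e (0.97), let-7g (0.16) and miR-98 (0.64) in NT-ESCs against MEFs, and let-7a (0.90), let-7c (0.051), let-7d (0.71) and let-7g (0.66) in NT-iPSCs against MEFs. TMM-type scaling reversed let-7g in iPSCs against ESCs (-0.11), let-7e in NT-ESCs against MEFs (0.25) and let-7a in NT-iPSCs against MEFs (0.13). The upper quartile reversed let-7f (-0.26) and let-7i (-0.034) in NT-ESCs and miR-98 (-0.24) in NT-iPSCs against MEFs. Leaving out a library gave -0.077 to 0.13 for let-7g in iPSCs against ESCs, below 0 without ESC 2 (-0.019), ESC 4 (-0.042) or iPSC 63, and -0.21 to 0.050 for let-7e in NT-ESCs against MEFs, above 0 without MEF 15.

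Without the 10 most abundant nonmembers the family's share was 47.0% in MEFs, 16.0% in ESCs, 17.7% in iPSCs, 41.0% for NT-ESCs and 47.5% for NT-iPSCs; with a library left out it was 19.4% to 21.2%, 7.37% to 8.29%, 10.1% to 11.0%, 26.9% to 27.0% and 33.5% to 33.7%. With 2 libraries in 3 of the groups, the fit borrows the spread of the others.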
